A study of Mus musculus with 10 samples.

Results

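Transcripts of 8 complement genes were followed in macrophages with and without the stimulatory G protein subunit Gsα. The genes, chosen by name as complement components and receptors of macrophages, were C1qa, C1qb, C1qc, C3, Cfb, Cfp, C3ar1 and C5ar1, 8 of the 53465 genes in the deposited table. All 8 passed the filter on low counts. Bulk RNA sequencing had been done on peritoneal macrophages of mice aged 6 to 8 weeks, cultured in serum-containing medium without any further treatment. There were 5 libraries of control mice (CTR) and 5 of Mac-GsαKO mice, whose name gives them as lacking Gsα in macrophages. The age and the culture conditions were the same for both groups. The strain, the driver of the deletion, the genotype behind CTR and whether each library came from a separate mouse were not stated. Errors and p-values therefore measure the spread between these libraries, which may be technical.

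Complement is a cascade of plasma proteins that coats microbes and dying cells and calls in phagocytes. The classical pathway starts when C1q binds a surface, the alternative pathway amplifies deposition of C3 through factor B and properdin, and both lead to the fragments C3a and C5a. Macrophages make C1q and several of the other components themselves and carry the receptors for C3a and C5a. Gsα couples receptors to adenylyl cyclase and so to cAMP, which can act on genes through cAMP response elements.

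Libraries held 15664243 to 18028974 counts for CTR and 16877249 to 19235777 for Mac-GsαKO. Gnas, the gene of Gsα, stood from 359 to 491 CPM (library counts on a shared scale) among controls and from 37.0 to 43.5 CPM among knockouts, so the libraries matched their labels. A count over the whole gene does not measure the protein that remained. All 7 macrophage markers had counts, and their sum was 29961 to 38287 CPM in CTR and 14530 to 16074 CPM in Mac-GsαKO. At an adjusted p under 0.05, 2 of the 7 were higher and only 1, Lyz2, was lower. The 7 markers thus did not all move with their sum. Ly6g, a defining gene of neutrophils, was at 0 in every library, but the other 5 of the 6 neutrophil markers had counts. Their sum was 18.8 to 27.4 CPM in CTR and 12.3 to 25.0 CPM in Mac-GsαKO. Of the 2 neutrophil markers tested, 1 was lower in Mac-GsαKO at an adjusted p under 0.05 by edgeR. Summed mast cell markers reached 29.3 CPM in CTR and 18.3 CPM in Mac-GsαKO, and summed B cell markers at most 8.69 CPM. CTR 5 stood apart in markers of connective tissue and the peritoneal lining. The 6 fibroblast markers summed to 137 CPM in CTR 5 and to between 30.1 and 65.3 CPM in the other 9 libraries, and the 6 mesothelial markers to 50.6 CPM against 7.30 to 27.3 CPM. All 12 of these genes had counts, and no defining marker of either type was at 0. Their part in the results below was not tested. In bulk RNA, fewer cells of a type and less RNA per cell cannot be told apart.

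None of the 8 genes differed between the genotypes at an adjusted p under 0.05 by edgeR's quasi-likelihood test, where 3.94% of the 13203 genes tested did. None reached an unadjusted p under 0.05 either, against 21.9% of all genes tested, and DESeq2 and limma voom also called none at an adjusted p under 0.05. In value 6 of the 8 were higher and 2 were lower in Mac-GsαKO, with a median log2 fold change of 0.12 against -0.01 over all genes tested. The libraries of the genotypes overlapped for each of the 8, whereas they did not overlap for 7.80% of the genes tested. A p that misses the threshold does not show that the levels were equal, so the 95% interval of each difference is given with it.

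**Figure D1:**
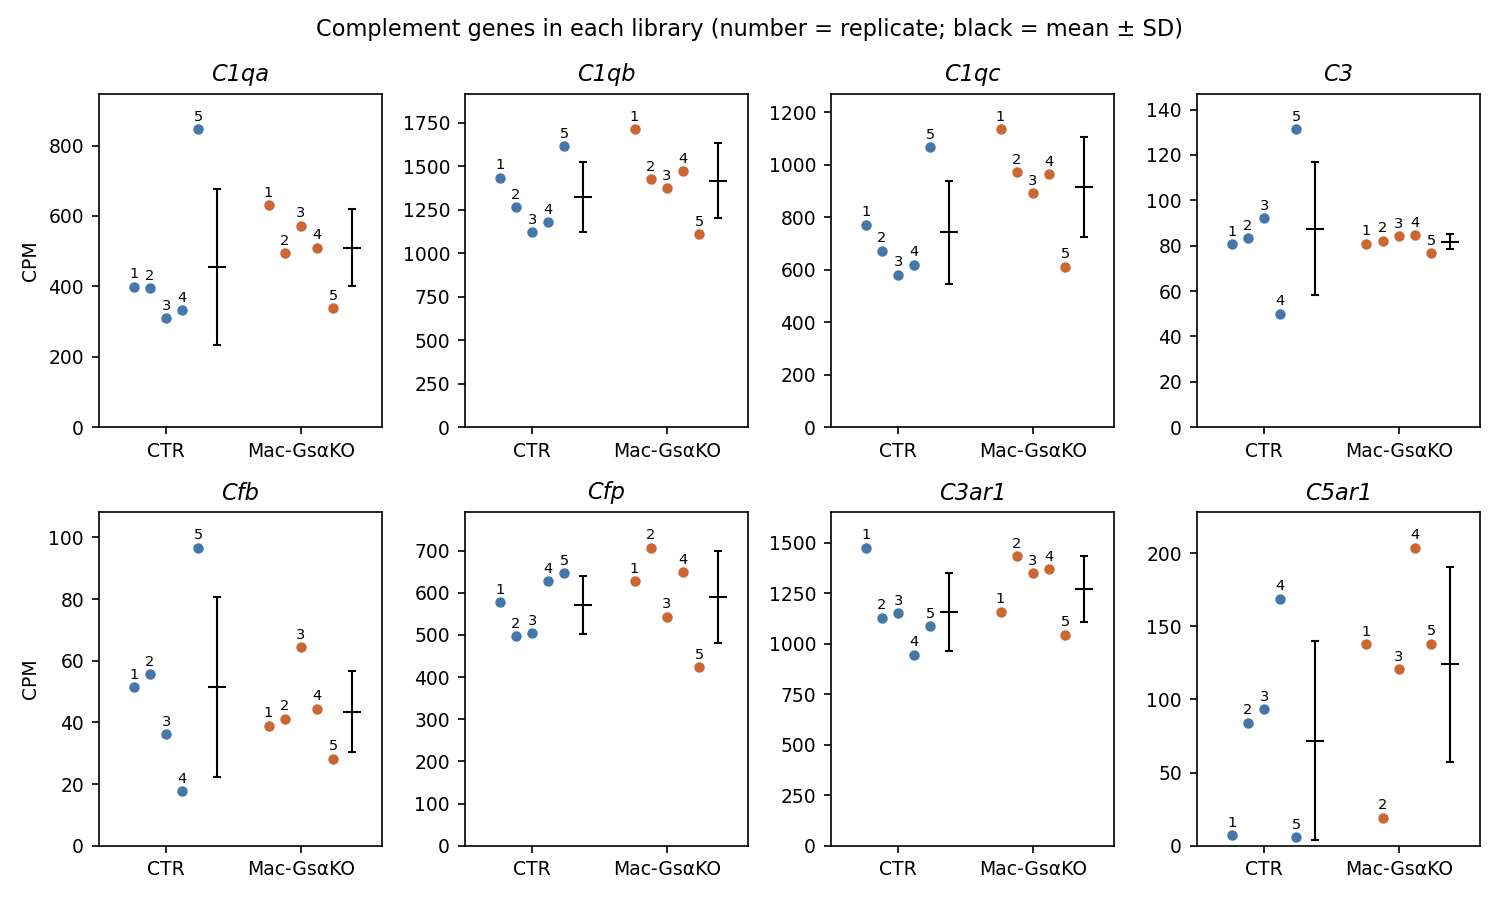
Level of each of the 8 complement genes in CPM (vertical axes, linear from 0) in the CTR (blue) and Mac-GsαKO (orange) libraries, 1 point per library with its replicate number, and the mean ± SD of 5 libraries in black. The genotypes overlap in every panel, CTR 5 is the highest control for C1qa, C1qb, C1qc, C3, Cfb and Cfp, and C5ar1 is near the bottom in CTR 1, CTR 5 and Mac-GsαKO 2.

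Sequences upstream of the start sites were available for 6 of the 8 genes from the RefSeq promoter table (build GRCm38.p6, while the authors' notes name GRCm39). The 250 bases before the start were searched on both strands for short motifs, because cAMP acts through TGACG elements and because PU.1-type GAGGAA, Maf-type TGCTGA and C/EBP-type TTGCGNAA elements are known from macrophage genes. The promoters of C1qb and C1qc are shown since these genes tracked each other from library to library, and that of C3 since it held the rarest of these motifs. All 3 lie on the minus strand, at chr4:136886201-136886450 for C1qb, chr4:136892915-136893164 for C1qc and chr17:57228137-57228386 for C3, and each is printed 5′ to 3′ up to the base before the start, with matches to these 4 motifs in capitals.
C1qb: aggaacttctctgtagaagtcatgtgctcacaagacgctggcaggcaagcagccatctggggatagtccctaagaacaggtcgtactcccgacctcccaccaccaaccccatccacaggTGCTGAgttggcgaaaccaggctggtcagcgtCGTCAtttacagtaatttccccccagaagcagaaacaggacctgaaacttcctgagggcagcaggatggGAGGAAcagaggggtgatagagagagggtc
C1qc: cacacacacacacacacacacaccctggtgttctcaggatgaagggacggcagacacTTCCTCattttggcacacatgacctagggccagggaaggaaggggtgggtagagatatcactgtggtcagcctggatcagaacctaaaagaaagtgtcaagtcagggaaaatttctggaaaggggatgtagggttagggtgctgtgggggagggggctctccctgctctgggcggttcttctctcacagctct
C3: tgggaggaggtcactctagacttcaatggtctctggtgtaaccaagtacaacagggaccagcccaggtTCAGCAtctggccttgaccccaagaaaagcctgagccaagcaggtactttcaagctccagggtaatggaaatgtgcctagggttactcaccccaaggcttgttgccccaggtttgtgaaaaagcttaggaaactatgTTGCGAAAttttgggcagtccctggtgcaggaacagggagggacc

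Of the 6 promoters, only that of C1qb held TGACG, a motif present in 17.8% of the 32851 promoters of the same length, and it began 99 bases before the start. The full element TGACGTCA, which contains TGACG and was found in 1.55% of all promoters, was in none of the 6. GAGGAA was in the promoters of C1qb and C1qc (23.3% of all promoters), and TGCTGA in those of C1qb, C3, C3ar1 and C5ar1 (16.1%). TTGCGNAA, held by 0.67% of all promoters, was found only in that of C3, 45 bases before the start. An NF-kappaB-type motif was in the C3ar1 promoter only (1.41%), and an interferon-response-type motif in none (2.98%). These matches describe letters in this window and are not evidence of binding.

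C1qa, C1qb and C1qc encode the A, B and C chains, which assemble in equal numbers into C1q, the recognition molecule of the classical pathway. Their genes lie side by side on chromosome 4. C1qa (ENSMUSG00000036887) stood at 399, 394, 309, 333 and 846 CPM in CTR 1 to CTR 5 and at 630, 495, 573, 510 and 339 CPM in Mac-GsαKO 1 to 5. CTR 5 lay far above the other controls and above every Mac-GsαKO library, while Mac-GsαKO 5 lay inside the range of the other controls. The means were 456 ± 222 CPM in CTR and 509 ± 109 CPM in Mac-GsαKO (SD, n = 5 each), a log2 fold change of 0.16 (SE 0.26, 95% interval -0.41 to 0.72, adjusted p = 0.755 by edgeR).

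C1qb (ENSMUSG00000036905) stood at 1433, 1263, 1121, 1179 and 1616 CPM in CTR 1 to CTR 5 and at 1712, 1424, 1372, 1471 and 1107 CPM in Mac-GsαKO 1 to 5. The highest and the lowest of all 10 libraries were both Mac-GsαKO libraries, numbers 1 and 5. Its log2 fold change was 0.10 (SE 0.13, 95% interval -0.18 to 0.38, adjusted p = 0.683). C1qc (ENSMUSG00000036896) stood at 772, 673, 581, 619 and 1069 CPM in CTR and at 1136, 972, 893, 966 and 612 CPM in Mac-GsαKO. For C1qc 4 of the 5 Mac-GsαKO libraries exceeded all controls but CTR 5, and Mac-GsαKO 5 lay among the low controls. Its log2 fold change of 0.30 (SE 0.18, 95% interval -0.10 to 0.70, adjusted p = 0.367) had the lowest p of the 8 genes.

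The size of the C1q differences depended on single libraries, among them CTR 5, which also carried the most fibroblast and mesothelial marker RNA. Without CTR 5 the log2 fold changes were 0.51 for C1qa (adjusted p = 0.115), 0.19 for C1qb (adjusted p = 0.443) and 0.47 for C1qc (adjusted p = 0.134), all by edgeR and all short of the threshold. Without CTR 4 and CTR 5 they were 0.48, 0.16 and 0.44. Over the fits that left out 1 library, C1qa ranged from 0.05 (without CTR 3) to 0.51. Without Mac-GsαKO 1, the highest knockout for all 3, the values were 0.07 for C1qa, 0.02 for C1qb and 0.21 for C1qc. Markers of resident large peritoneal macrophages, all 7 with counts, summed to 588 CPM in CTR 5 and to between 251 and 310 CPM in the other controls. In Mac-GsαKO they summed to between 344 and 602 CPM, although 4 of the 7 were lower there and 0 higher at an adjusted p under 0.05. The 7 markers thus did not all move with their sum. Their part in the C1q levels was not tested. The 3 genes shared their extreme libraries within each genotype. All 3 were highest in CTR 5 and lowest in CTR 3 among controls, and highest in Mac-GsαKO 1 and lowest in Mac-GsαKO 5 among knockouts. CTR 5 was also the highest control for C3, Cfb and Cfp, and Mac-GsαKO 5 the lowest knockout for C3, Cfb, Cfp and C3ar1. Between the extremes, Mac-GsαKO 3 was the next to highest knockout for C1qa but the next to lowest for C1qb and C1qc.

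**Figure D2:**
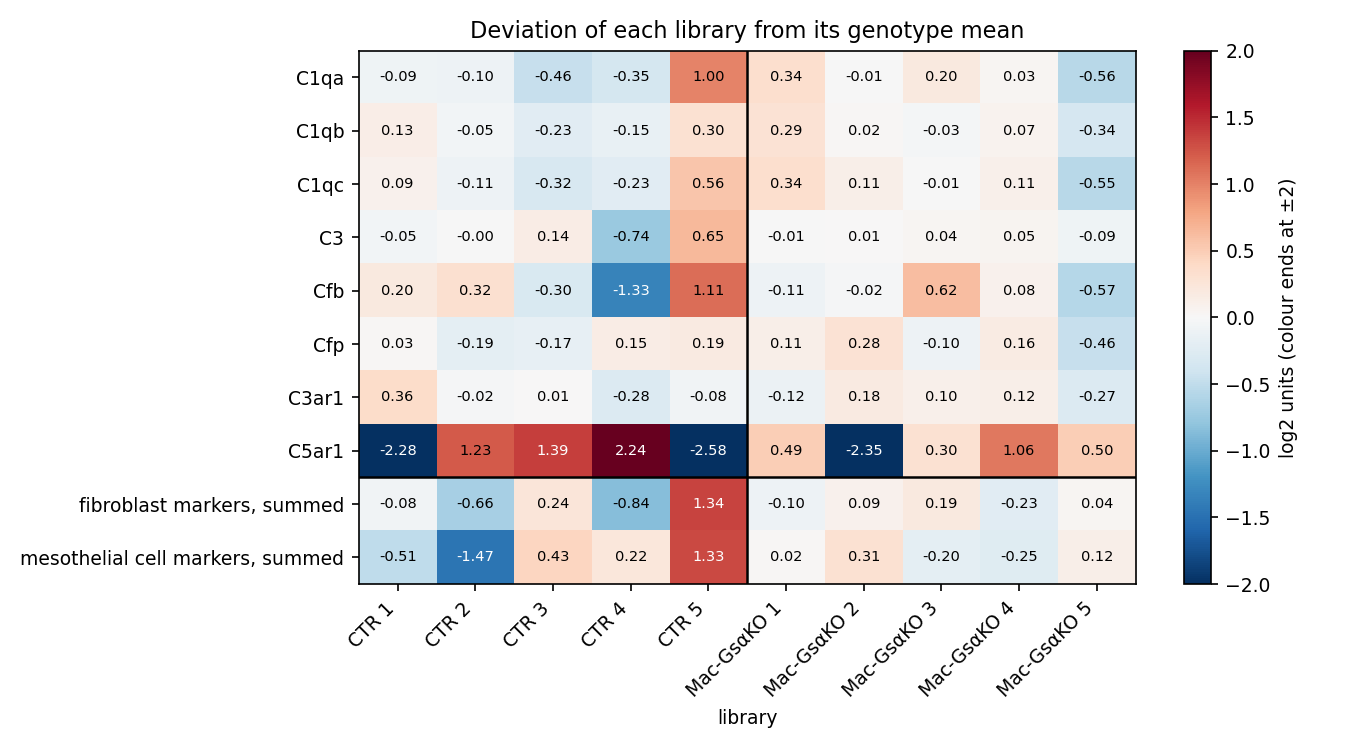
Deviation of log2 CPM from the mean of its own genotype (colour and number, log2 units) for the 8 complement genes and for the summed fibroblast and mesothelial markers (rows) in the 10 libraries (columns). CTR 5 is above its genotype mean for C1qa by 1.00, for C3 by 0.65 and for Cfb by 1.11, Mac-GsαKO 5 is below it for 7 of the 8 genes, and C5ar1 falls by over 2 in CTR 1, CTR 5 and Mac-GsαKO 2.

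Per gene length as the authors scaled it, the C1q chains differed in transcript level. In the FPKM deposited by the authors (counts scaled by gene length and library total), C1qb averaged 1202 ± 219 in CTR and 1318 ± 201 in Mac-GsαKO (SD, n = 5 each). C1qa averaged 437 ± 226 and 496 ± 107, and C1qc 343 ± 101 and 431 ± 90.2. In every library C1qb exceeded C1qa and C1qc, with a C1qa to C1qb ratio between 0.288 and 0.548 and a C1qc to C1qb ratio between 0.262 and 0.345. In CPM C1qb likewise exceeded both in every library, but C1qc exceeded C1qa in every library. The order of C1qa and C1qc thus rests on the gene lengths used, and so does the size of the FPKM ratios. What those lengths cover was not stated. The ratio of C1qa to C1qb was 0.548 in CTR 5 and between 0.288 and 0.437 in the other libraries, so in CTR 5 the C1qa level was raised more than that of C1qb. The ratio of C1qc to C1qb was 0.281 ± 0.0303 in CTR and 0.325 ± 0.0258 in Mac-GsαKO, with CTR 5 (0.335) and Mac-GsαKO 5 (0.280) each inside the range of the other genotype.

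C3, the central component that all pathways cleave, was much scarcer as a transcript than C1q. C3 (ENSMUSG00000024164) stood at 80.7, 83.4, 92.3, 50.01 and 131 CPM in CTR 1 to CTR 5 and at 81.0, 82.3, 84.2, 84.7 and 76.8 CPM in Mac-GsαKO 1 to 5. The Mac-GsαKO libraries lay close together (81.8 ± 3.18 CPM), while the controls ranged from CTR 4 at the bottom to CTR 5 at the top (87.5 ± 29.2 CPM). Its log2 fold change was -0.10 (SE 0.19, 95% interval -0.51 to 0.31, adjusted p = 0.792 by edgeR), 0.10 without CTR 5 and -0.24 without CTR 4. CTR 5 was also highest in summed fibroblast markers (137 CPM) and CTR 4 lowest (30.1 CPM). CTR 2, the middle control for C3, was almost as low in these markers (34.1 CPM). Summed mesothelial markers were also highest in CTR 5 (50.6 CPM) but lowest in CTR 2 (7.30 CPM), with CTR 4 at 23.6 CPM. The part of those cells in the C3 level was not tested.

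Factor B and properdin serve the alternative pathway: factor B, from Cfb, is the protease part of its C3 convertase, and properdin, from Cfp, stabilises that convertase. Cfb (ENSMUSG00000090231) stood at 51.4, 55.6, 36.2, 17.7 and 96.6 CPM in CTR 1 to CTR 5 and at 38.9, 41.2, 64.3, 44.4 and 28.2 CPM in Mac-GsαKO 1 to 5. As with C3, CTR 4 and CTR 5 were the extremes, and the 5 knockouts lay between them. On the log2 scale the fold change of Cfb was -0.25 (SE 0.35, 95% interval -1.01 to 0.52, adjusted p = 0.714), 0.11 without CTR 5 and -0.46 without CTR 4. In GENCODE M21 the gene model Gm20547 spans Cfb and its neighbour C2 on the same strand, so reads of these genes may be assigned to any of them. Gm20547 held 110 counts in CTR 5, 76 in Mac-GsαKO 5 and at most 10 in the other 8 libraries, against 1550 counts of Cfb in CTR 5.

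Cfp was far steadier than Cfb. Cfp (ENSMUSG00000001128) stood at 578, 497, 504, 628 and 646 CPM in CTR 1 to CTR 5 and at 627, 707, 543, 649 and 423 CPM in Mac-GsαKO 1 to 5. Mac-GsαKO 2 was the highest and Mac-GsαKO 5 the lowest of all 10 libraries. Cfp had a log2 fold change of 0.05 (SE 0.13, 95% interval -0.25 to 0.34, adjusted p = 0.866), the smallest of the 8 in size, which became -0.03 without Mac-GsαKO 2.

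C3ar1 and C5ar1 encode the receptors for the anaphylatoxins C3a and C5a, G protein-coupled receptors best known for signalling through Gi rather than Gs. C3ar1 (ENSMUSG00000040552) stood at 1476, 1129, 1153, 946 and 1087 CPM in CTR 1 to CTR 5 and at 1159, 1435, 1351, 1370 and 1045 CPM in Mac-GsαKO 1 to 5. CTR 1 exceeded every knockout, and 4 of the 5 knockouts exceeded every other control. For C3ar1 the log2 fold change was 0.14 (SE 0.13, 95% interval -0.14 to 0.41, adjusted p = 0.566 by edgeR), 0.24 without CTR 1 and 0.02 without CTR 4 and CTR 5.

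C5ar1 was the most uneven of the 8 genes. C5ar1 (ENSMUSG00000049130) stood at 7.26, 84.1, 93.4, 169 and 5.86 CPM in CTR 1 to CTR 5 and at 138, 19.1, 121, 204 and 138 CPM in Mac-GsαKO 1 to 5. CTR 1, CTR 5 and Mac-GsαKO 2 were low and the other 7 libraries lay between 84.1 and 204 CPM, so each genotype held both low and high libraries. These values rest on 94 counts in CTR 5, 130 in CTR 1 and 373 in Mac-GsαKO 2, against 1439 to 3621 counts in the rest. The means were 71.9 ± 68.1 CPM in CTR and 124 ± 66.6 CPM in Mac-GsαKO (SD, n = 5 each). The log2 fold change of 0.79 had an SE of the same size (0.79), a 95% interval of -0.93 to 2.50 and an adjusted p of 0.594 by edgeR. It ranged from 0.49 without CTR 5 or without CTR 1 to 1.38 without CTR 4.

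The spread of C5ar1 stood out among all well-detected genes. Its SD of log2 CPM within genotypes was 1.86, which is 9.39 times the median of 0.198 over the 8914 genes with a mean log2 CPM of at least 3, and only 3 of those genes had a larger one. Those 3 were Cd63-ps, Gm4070 and Gm28036, a pseudogene and predicted gene models. The next named protein-coding genes in that order included Sp1, a general transcription factor, at 1.61 and Hnrnpa3, an RNA-binding protein gene, at 1.49. Sp1 was at 1.42 CPM in CTR 4 while the other libraries had 41.6 to 64.5 CPM, a wide swing in another library than those low in C5ar1. What sets the C5ar1 swings was not tested. The assignment of reads to C5ar1 could not be checked from a count table, so uneven expression and uneven counting of its reads cannot be told apart. Cfb had an SD of 0.70 (124th of 8914), C1qa of 0.48, C3 of 0.35 and C1qc of 0.34, and Cfp, C1qb and C3ar1 lay between 0.213 and 0.239, close to the median.

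**Figure D3:**
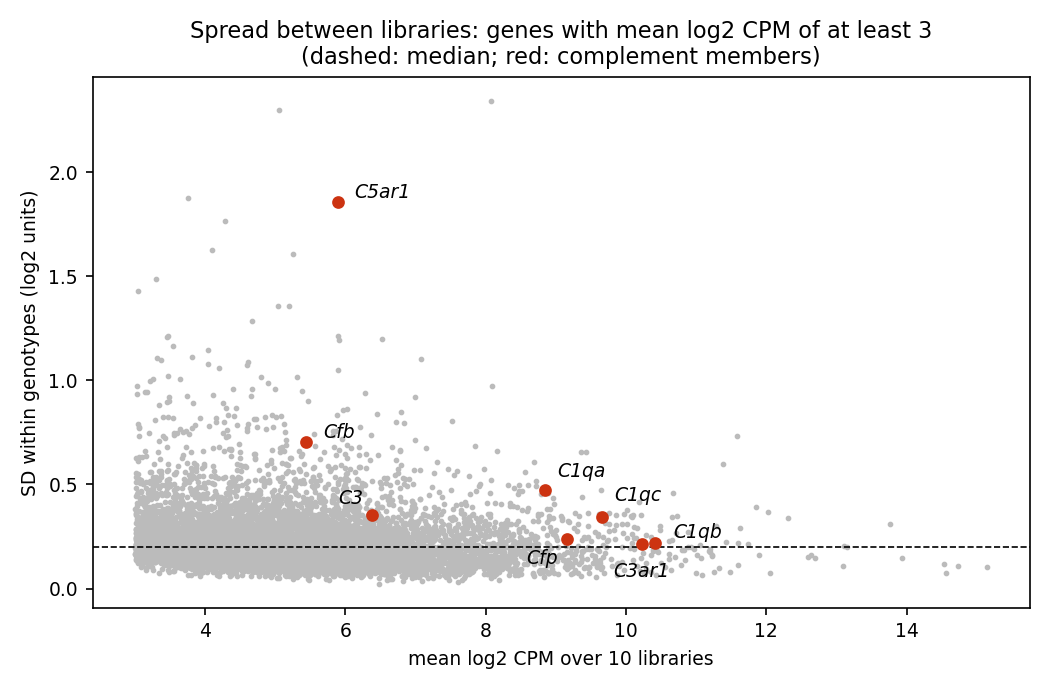
SD of log2 CPM within genotypes (vertical axis) against mean log2 CPM over 10 libraries (horizontal axis) for 8914 genes (grey points), with the 8 complement genes in red and the median SD as a dashed line. C5ar1 sits at 1.86, above all but 3 genes, and Cfp, C1qb and C3ar1 sit near the median of 0.198.

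C5ar2, the other C5a receptor and the neighbour of C5ar1 on chromosome 7, was too low to be tested. It held 29 counts in CTR 2, 23 in CTR 5 and 61 in Mac-GsαKO 3, and 0 to 2 counts in the other 7 libraries. CTR 5 was low in C5ar1, but CTR 2 and Mac-GsαKO 3 were not, with C5ar1 at 84.1 and 121 CPM. The other libraries low in C5ar1 were among those with 0 to 2 C5ar2 counts.

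Ordered by the deposited FPKM, C1qb was first in both genotypes and its libraries overlapped with those of no other member. C1qa (437 ± 226 FPKM in CTR), C1qc (343 ± 101), Cfp (276 ± 32.0) and C3ar1 (266 ± 50.1) followed, and each overlapped with the next in this order in both genotypes. C3 (15.4 ± 5.62 FPKM), C5ar1 (12.4 ± 11.3) and Cfb (10.8 ± 6.39) formed a lower tier, below every C3ar1 value and overlapping each other in CTR. In Mac-GsαKO these 3 again lay below every C3ar1 value, but C3 (13.7 to 15.1 FPKM) did not overlap with Cfb (5.94 to 13.6 FPKM). The order there had C3ar1 (299 ± 38.6 FPKM) before Cfp (293 ± 54.7) and C5ar1 (22.5 ± 12.1) before C3 (14.6 ± 0.569).

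The rest of the pathway was read from a list of 47 other complement genes. Of these 23 passed the filter on low counts, 11 were at 0 in all 10 libraries and 13 had too few counts to be tested. A count of 0 allows up to 3 counts per library, or 0.154 to 0.203 CPM, for counting error only. The 11 genes at 0 were those of the mannose-binding lectins (Mbl1 and Mbl2) and the collectin Colec10, of factor D (Cfd), of the terminal components C5 (Hc), C6, C7 and C8a, and of the plasma proteins C4bp, Vtn and Cpn2. Among the 23 tested, 2 rose and none fell at an adjusted p under 0.05 by edgeR, against 1.83% and 2.11% of all genes tested. The median log2 fold change of the 23 was -0.03, with 10 higher and 13 lower in value. At an unadjusted p under 0.05, 4 of the 23 differed, where 21.9% of all genes tested did, so the list did not stand above that share.

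The genes that rose were both among the 8 tested of 10 other receptors. Itgam encodes the alpha chain of complement receptor 3, which binds surfaces coated with the C3 fragment iC3b. It stood at 256, 453, 433, 478 and 265 CPM in CTR 1 to CTR 5 and at 534, 751, 721, 766 and 489 CPM in Mac-GsαKO 1 to 5, without overlap. The log2 fold change was 0.79 (SE 0.20, 95% interval 0.35 to 1.23, adjusted p = 0.0494 by edgeR). This call lay at the edge of the threshold: Itgam lost it in 8 of the 10 fits that left out 1 library, all but those without CTR 4 or Mac-GsαKO 5, with an adjusted p of up to 0.130. Itgb2, the gene of the beta chain that pairs with Itgam, averaged 2719 ± 547 CPM for CTR and 2813 ± 339 CPM for Mac-GsαKO (log2 fold change 0.05, SE 0.13, adjusted p = 0.857).

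Lrp1, an endocytic receptor with many ligands that also takes part in the uptake of C1q-coated cells, stood between 707 and 1610 CPM among controls and between 1797 and 2533 CPM among knockouts. Its log2 fold change was 0.77 (SE 0.18, adjusted p = 0.0376 by edgeR), with CTR 5 the lowest of all libraries. With 1 library left out its call was lost in 6 of 10 fits, namely without CTR 1, CTR 3, Mac-GsαKO 1, Mac-GsαKO 2, Mac-GsαKO 4 or Mac-GsαKO 5, with an adjusted p of up to 0.0990.

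Among the classical pathway genes, 6 of 7 were tested and none passed. C4b, which supplies C4, averaged 67.8 ± 18.8 CPM for CTR and 88.2 ± 30.9 CPM for Mac-GsαKO (log2 fold change 0.38, SE 0.25, adjusted p = 0.394), and C1ra, a protease of the C1 complex, at 9.67 ± 2.31 and 8.50 ± 1.15 CPM (-0.19, SE 0.16, adjusted p = 0.546). With 1 library left out, C4b ranged from 0.21 (without Mac-GsαKO 1) to 0.54 (without CTR 4) and C1ra from -0.27 (without Mac-GsαKO 3) to -0.04 (without CTR 5), with no call. C4b has a near-identical copy, C4a, so the split of reads between them is uncertain. C2, chosen after its values were seen, encodes the protease part of the classical C3 convertase and came closest. It stood at 2.63, 2.22, 1.86, 0.811 and 4.55 CPM in CTR 1 to CTR 5 and at 6.72, 4.10, 5.25, 4.56 and 4.37 CPM in Mac-GsαKO 1 to 5, so that CTR 5 alone overlapped with the knockouts. The log2 fold change of C2 was 1.04 (SE 0.33, 95% interval 0.32 to 1.77, adjusted p = 0.0949 by edgeR) and 1.40 without CTR 5 (adjusted p = 0.0308). C2 was called in 4 of the 20 other fits, those without CTR 5, without CTR 4 and CTR 5, with DESeq2 (adjusted p = 0.0288) and with voom (adjusted p = 0.00888). The other 16 did not call it, among them the fit with the replicate block (adjusted p = 0.110) and that without Mac-GsαKO 1, which gave the highest adjusted p (0.206). The overlapping model Gm20547 touches C2 as well, and C2 rested on 12 to 116 counts per library.

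Of the 8 lectin pathway genes 1 was tested, Fcna, which encodes the macrophage ficolin A. Fcna averaged 172 ± 94.8 CPM for CTR and 168 ± 53.4 CPM for Mac-GsαKO (log2 fold change -0.03, SE 0.32, adjusted p = 0.962, with a sign that changed with the scaling), with CTR 4 the highest at 317 CPM. Of the 7 terminal pathway genes only C8g was tested, at 1.01 ± 0.302 CPM in CTR and 1.16 ± 0.195 CPM in Mac-GsαKO (0.21, SE 0.26, adjusted p = 0.674). With 1 library left out, C8g ranged from 0.09 (without CTR 5) to 0.35 (without CTR 3).

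Regulators of complement did not pass the test in either class. Of the 8 soluble regulators 3 were tested. Clu, the gene of clusterin, reached 9.91 CPM in CTR 5 and lay between 1.45 and 4.53 CPM elsewhere (log2 fold change -0.83, SE 0.45, adjusted p = 0.308). It was -0.23 without CTR 5.

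Of the 6 membrane regulators 4 were tested. Cr1l, the gene of Crry, the rodent protein that guards host cells from C3 deposition, averaged 79.99 ± 9.15 CPM for CTR and 67.4 ± 8.95 CPM for Mac-GsαKO (log2 fold change -0.25, SE 0.11, adjusted p = 0.225), and its libraries overlapped. Cd59a, the gene of an inhibitor of the membrane attack complex, stood at 3.37 ± 0.299 and 3.71 ± 0.513 CPM (0.14, SE 0.15, adjusted p = 0.622).

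**Figure D4:**
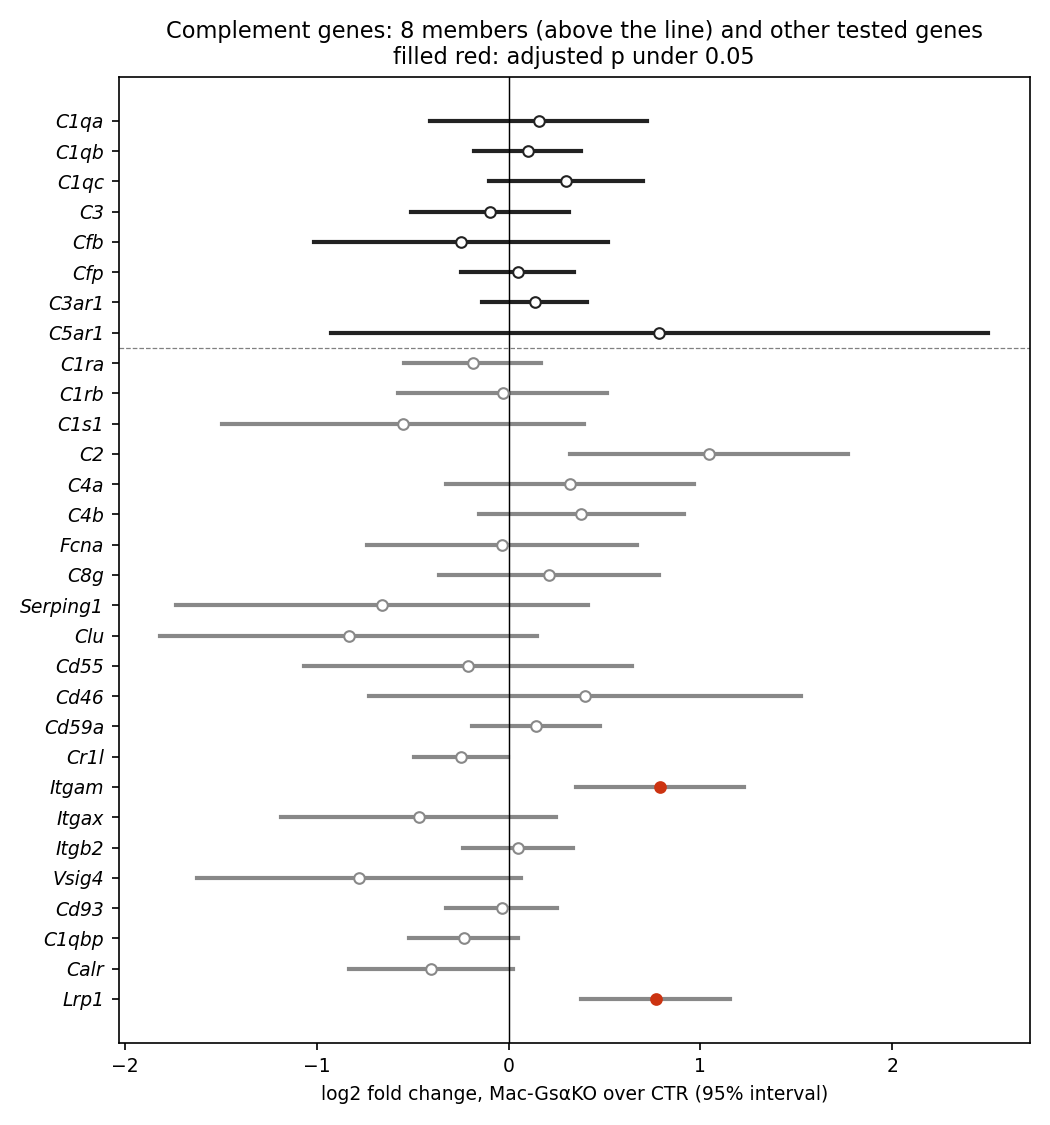
Log2 fold change of Mac-GsαKO over CTR with its 95% interval (horizontal axis) for the 8 members (above the dashed line) and all but 1 of the 23 other complement genes tested (below it). All 8 member intervals include 0, C5ar1 has the widest of them (-0.93 to 2.50), and the filled red points, Itgam and Lrp1, are the 2 genes shown with an adjusted p under 0.05.

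The genes most like C1q and C3 from library to library were found by the correlation of log2 CPM over 10 libraries after the genotype mean was subtracted, among 8243 named genes. They were selected for that correlation, and the libraries share their depth and composition, so no p is given. For the mean of the 3 C1q genes these were Sssca1 (Pearson r 0.97, Spearman rho 0.90), Ppox (0.95, 0.85), Cdk11b (0.94, 0.81), Bin2 (0.94, 0.82) and Gatad1 (0.94, 0.73). Without CTR 5 and Mac-GsαKO 5, the libraries farthest from the median, their r lay between 0.85 and 0.90. For C3 they were Taz (r 0.95, rho 0.92), Dlat (0.94, 0.43), Mtfr1l (0.93, 0.60), Hnrnpul2 (0.93, 0.76) and Plin3 (0.93, 0.67). Without CTR 4 and CTR 5 the r of Taz with C3 was 0.92 and that of the other 4 between 0.05 and 0.46, so for those 4 the relation rested on these controls.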

How the data were processed

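RNA from 5 CTR and 5 Mac-GsαKO libraries was analysed from a deposited table of raw whole-number counts for Ensembl genes, beside FPKM computed by the authors. Per the submitters' processing notes, CASAVA 1.8, HISAT2, SAMtools 1.3.1, edgeR and the build GRCm39 were used, in roles not stated there. No source used here gives the read counter, annotation release or strand setting, so reads of overlapping genes cannot be told apart. Columns were assigned by the library number in the labels. Of the identifiers 53274 matched a symbol and 191 did not.

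Counts were tested in R 4.3.3 with edgeR 4.0.16 (filterByExpr defaults, 13203 genes with 99.9% of counts, TMM, quasi-likelihood test, two-sided, genotype as the only term). Benjamini-Hochberg adjustment ran over all 13203 genes, and 0.05 was the threshold. SE was |log2 fold change| divided by the root of F, and intervals use the test's degrees of freedom. FPKM served only to compare levels between genes. Intervals and limits cover spread between libraries or counting error, since without molecular identifiers reads need not be independent molecules.

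Other settings were DESeq2 1.42.0 size factors and Wald test, library size alone, other count filters, limma 3.58.1 voom with quality weights, a robust fit, the replicate number as a block, a correction for gene length, each library left out, and CTR 4 and CTR 5 left out. The exact permutation test of log2 CPM was run for the members and other listed genes that were tested, not for all genes. The rule named the 8 members, Gnas, list genes that passed and the 2 most abundant tested genes of each role, and the 5 genes most like C1q and C3. C5ar2, C2, Gm20547, Sp1 and Hnrnpa3 were chosen after their values were seen. The members and lists were chosen with earlier results of these data known. A result that the rule takes is not reported here.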

Additional observations from a re-analysis of the deposited data

Results flagged for a closer look

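C1qa stood at 846 CPM in CTR 5 against 399 CPM in the next control. The gap was 0.832 of the range of the 5 controls, above Dixon's 95% critical value. Of 40 groups of 5 libraries examined, 1 passed this limit, and chance alone passes about 1 in 20. Beside it, CTR 5 also had the highest summed fibroblast (137 CPM) and mesothelial (50.6 CPM) markers. Among controls it was highest in summed markers of resident large peritoneal macrophages as well (588 CPM). The part of these markers was not tested.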

How the results depend on the processing

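None of the 8 members was called in any of the 20 other fits, and the exact permutation test gave none either, with a lowest p of 0.190 where 0.00794 is the smallest possible. The lowest adjusted p of a member was 0.0637, for C1qc under voom. C1qa, C1qb, C1qc, C3ar1 and C5ar1 kept their sign in all 20. C5ar1 was 1.33 with the replicate block and 1.40 with voom. With 1 library left out, C3 ranged from -0.24 to 0.10, Cfb from -0.46 to 0.11 and Cfp from -0.026 to 0.15, each across 0.

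Over all genes, 520 were called (241 higher, 279 lower). The count was 261 without a filter on low counts, 1289 with DESeq2's Wald test, 1919 with voom and 1185 without CTR 4 and CTR 5, and 62 (without Mac-GsαKO 2) to 868 (without CTR 4) with 1 library left out. Scaling by library size alone gave 312 higher and 213 lower. Equal replicate numbers were not said to pair the libraries. Residuals of same-numbered libraries correlated between -0.13 and 0.06, and in no such pair was each library the best match of the other. These correlations cannot decide whether the libraries were paired. With the replicate block 104 genes were called, none a member and 1 of the wider list, Itgam.

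In the wider list the 2 calls became 0 without a filter, 1 with a robust fit, 1 with a correction for gene length, and 0 to 2 with 1 library left out. Fcna turned to 0.024 with library size alone, 0.47 with voom, 0.076 with the replicate block, 0.036 with the length correction and 0.64 without CTR 4 and CTR 5, and ranged from -0.18 to 0.31 with 1 library left out. Itgb2 ranged from -0.018 to 0.18 with 1 library left out. The cause of these changes was not tested. The 24 untested genes of the wider list had at most 61 counts in a library.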

Other observations

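The genes that followed C5ar1 most closely from library to library, chosen after its values were seen, were found as for C1q and C3, by correlation of log2 CPM over 10 libraries with the genotype mean subtracted. They were Ube2d3 (r 0.93, rho 0.76), Cd86, which encodes a co-stimulatory ligand for T cells (r 0.92, rho 0.92), Pak4 (r 0.91, rho 0.79), Ap3m1 (r 0.91, rho 0.67) and Nudt19 (r 0.87, rho 0.70). Without CTR 5 and Mac-GsαKO 2 their r with C5ar1 lay between 0.84 and 0.92. They were selected for this correlation among 8243 genes, so no p is given.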
